A study of Mus musculus with 6 samples.

Results

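The proteins of the mitochondrial ribosome are encoded by nuclear genes whose symbols begin with Mrpl (large subunit) or Mrps (small subunit). In the deposited table of 20938 genes, 78 rows carried such a symbol followed by a digit, 49 of the large and 29 of the small subunit. None was named as a pseudogene and none had a mean below 1 FPKM (fragments scaled to transcript length and library depth), so all 78 were kept. The members nearest to that threshold, Mrpl46 and Mrpl1, had means of 4.13 and 7.16 FPKM over the 6 libraries. The libraries were made from whole tumours of B16F10 cells, a melanoma line of C57BL/6 mice. Male C57BL/6 mice aged 6 weeks received the cells subcutaneously at the left hind leg, suspended in 200 µL saline, and the tumours were collected on day 19. The control group and the YKL-40 overexpressing group, here called YKL-40-labelled, had 3 libraries each. The genotype tag is WT in both groups, the control construct and the species of the YKL-40 sequence are not stated, and no label says whether each library came from a mouse of its own. The p-values therefore measure only the spread between these samples, which may be technical.

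The mitochondrial ribosome translates the few messenger RNAs of the mitochondrial genome, all of which code for subunits of the respiratory chain and ATP synthase. Its RNA is made inside the organelle, whereas its proteins are made in the cytosol and imported. Some of these proteins have a counterpart in bacterial ribosomes and others are specific to mitochondria, and their genes are expressed in nearly every tissue. In tumours they are often read together with the genes of oxidative phosphorylation, since every subunit encoded by mitochondrial DNA depends on this ribosome.

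The summed FPKM ran from 468605 to 490955 per library, and 10900 to 11301 genes reached 1 FPKM. Chil1, the mouse gene of YKL-40, was between 0 and 0.0644 FPKM in every library, and with the species of the overexpressed sequence not stated this does not check the labels. All 8 melanocyte markers were present in every library, with summed levels of 8662 to 10132 FPKM in the controls and 8664 to 10804 in the YKL-40-labelled libraries. Summed markers of several other cell types went with the groups, though those of fibroblasts and endothelium overlapped. The 16 skeletal muscle markers summed to 50.6 to 205.2 FPKM in the controls and 6.57 to 33.4 in the YKL-40-labelled libraries, with Myh1, Myh4, Myh2 and Pvalb at 0 in at least 1 library. The 10 macrophage markers summed to 60.3 to 167.2 and 217 to 355 FPKM, the 7 fibroblast markers to 42.2 to 251 and 239 to 423, the 7 class II genes to 60.7 to 91.1 and 521 to 1951, and the 10 T cell markers to 1.93 to 6.21 and 10.2 to 28.1, with Cd3d, Cd3g and Cd8b1 at 0 in at least 1 library. The 6 endothelial markers summed to 39.8 to 87.4 and 48.7 to 76.7 FPKM. The part of these other cells in the values below was not tested, and in whole tumours fewer cells of a type and less RNA per cell cannot be told apart.

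None of the 78 mitochondrial ribosomal protein genes passed the test for a difference between the groups after adjustment over all genes. The change of a gene is the YKL-40-labelled minus the control mean of log2(FPKM + 1), tested with limma in 1 fit over 11241 genes with Benjamini-Hochberg adjustment at 0.05. Of all tested genes, 0.436% were called (49 genes), and among the members 0 were, with a lowest adjusted p of 0.205. At an unadjusted p under 0.05, 1 member was higher (Mrpl28) and 2 were lower (Mrpl42 and Mrps33), which is 3.85% of the members, where 8.71% of all tested genes were higher and 9.24% lower. The groups did not overlap for 7 members in the higher and 4 in the lower direction, against 10.3% and 14.2% of all tested genes. The members thus passed each of these marks no more often than tested genes in general. Without YKL-40-labelled library 1 the members at an unadjusted p under 0.05 numbered 6, all lower, where 14.4% of all genes in that fit passed the same mark. Without control 1 or control 2 they numbered 1, beside 12.7% and 11.9% of all genes. The count without YKL-40-labelled library 2 or 3 was 2, both higher, beside 20.8% and 12.3% of all genes. The 49 genes called over the whole table became 2, 0 and 209 without controls 1, 2 and 3, and 4, 238 and 35 without YKL-40-labelled libraries 1, 2 and 3, while the members called were 0 each time.

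The changes were small and lay on both sides of 0. They ran from -0.39 (Mrpl42) to 0.31 (Mrpl28) on the log2 scale, with 43 members above 0 and 35 below. The median change was 0.02 for the large subunit, 0.03 for the small subunit and -0.04 for all tested genes. When the muscle marker level was added as a covariate, the median was -0.10 for each subunit and 22 members were above 0. The median of all genes in that fit was -0.01. The SD of the members' changes was 0.22, against 0.14 without the covariate. The mean log2 level of the muscle markers was 2.09 to 3.75 in the controls and 0.44 to 1.70 in the YKL-40-labelled libraries. Marker level and group are therefore hard to tell apart in that fit. No member had a change of more than 0.5 in either direction, whereas 9.47% of all tested genes did, and 14.5% of tested genes had a change larger in size than that of Mrpl42. In the related lists given further below, cytosolic ribosomal proteins included, no gene had a change of more than 0.5 either. The median level was 35.1 FPKM for the members and 13.4 FPKM for all tested genes. The 95% interval of 74 members (94.9%) lay within 1.5-fold of no change in both directions (0.585 on the log2 scale), against 70.0% of all tested genes. The median standard error of the change was 0.12 for the members and 0.13 for all tested genes. The 4 exceptions were Mrpl42, whose lower bound of -0.71 was the farthest from 0, Mrpl33, Mrpl54 and Mrps12. Mrpl54 was chosen after its values were seen.

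**Figure D1:**
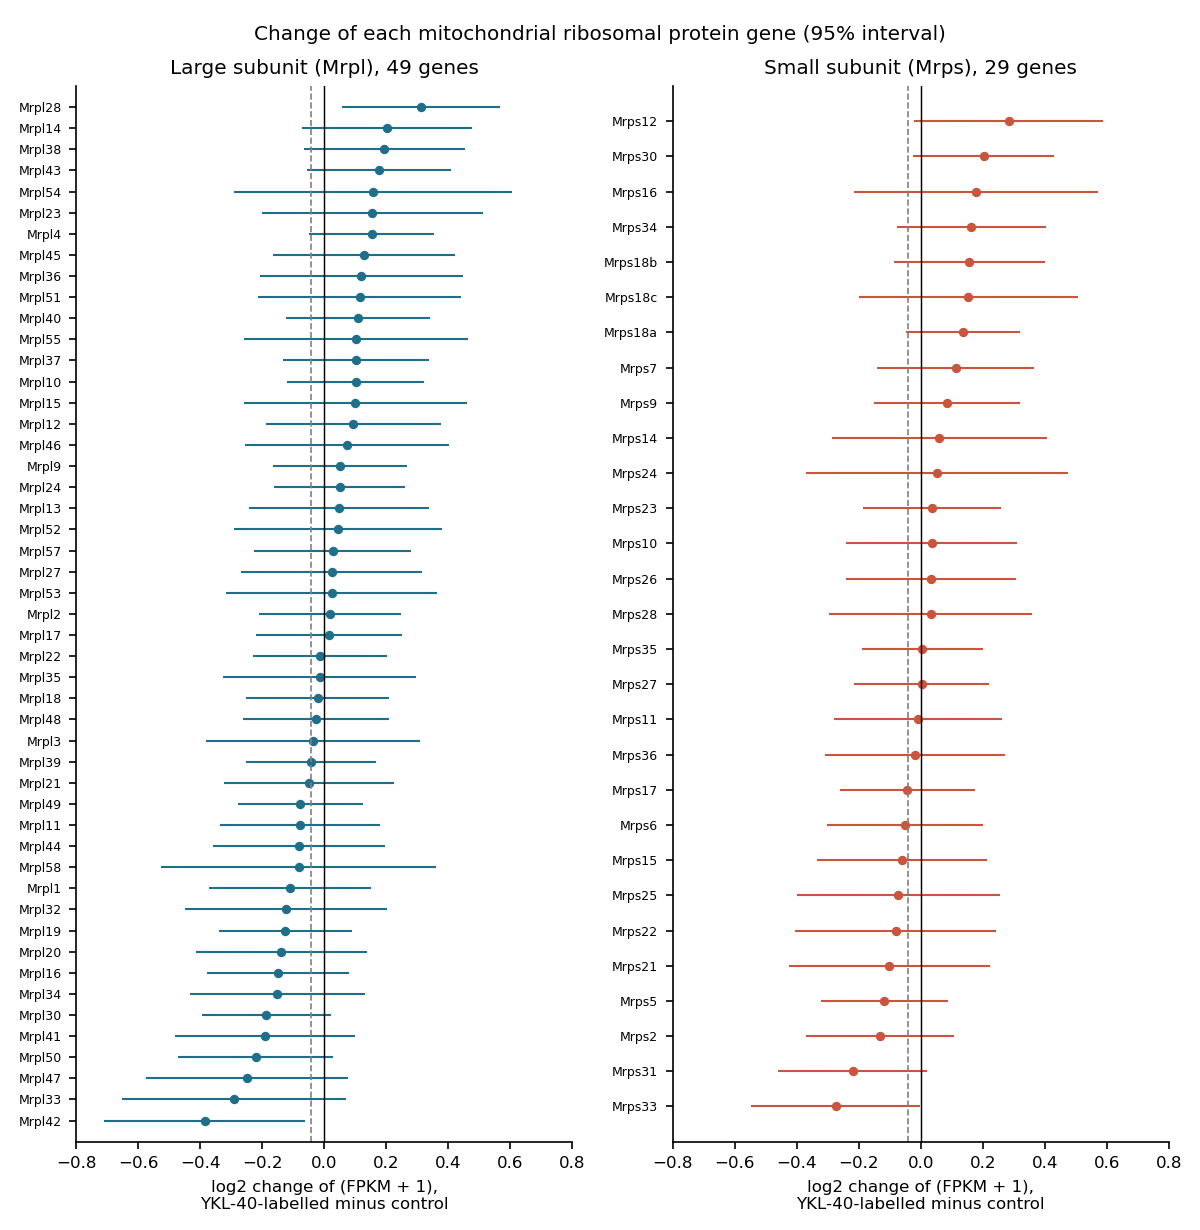
Log2 change of (FPKM + 1), YKL-40-labelled minus control, of each large subunit gene (left) and small subunit gene (right), ordered by size, with points for the limma estimate and bars for its 95% interval. The solid line marks no change and the dashed line the median of all tested genes (-0.04), and only the bars of Mrpl28, Mrpl42 and Mrps33 leave out 0.

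Levels differed far more between members than between groups. FPKM values are per length, so genes can be set side by side, and the most abundant member had a mean 78.5 times that of the least abundant. Mrpl12, which forms the flexible stalk that recruits translation factors, was highest. Its values were 284, 340 and 317 FPKM in the controls and 381, 318 and 306 FPKM in the YKL-40-labelled libraries, and the groups overlapped (change 0.09, SE 0.12). Mrpl51, a mitochondria-specific protein of the large subunit, followed with 185, 191 and 194 FPKM in the controls and 253, 175 and 196 FPKM in the other group (change 0.11, SE 0.14). Here YKL-40-labelled library 1 alone stood above the rest. Mrpl30, with a bacterial counterpart, had 169, 193 and 177 FPKM in the controls and 162, 155 and 157 FPKM in the YKL-40-labelled libraries. Its groups did not overlap, but the change of -0.19 (SE 0.09) had an adjusted p of 0.321 in limma. These were the 3 members with a mean above 100 FPKM. Mrpl12 was above Mrpl51 in every library, whereas the values of Mrpl51 and Mrpl30 overlapped across libraries.

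At the other end, 4 members were under 10 FPKM. Mrpl46, of the central protuberance, had 4.17, 4.14 and 3.63 FPKM in the controls and 5.24, 3.66 and 3.93 FPKM in the YKL-40-labelled libraries. Mrpl1, part of the stalk where spent transfer RNA leaves, had 7.64, 7.55 and 7.18 FPKM and 7.51, 5.93 and 7.16 FPKM. Both groups of each overlapped (changes 0.08 and -0.11). The lowest genes of the small subunit were Mrps11, a platform protein, with 10.2, 11.3 and 9.20 FPKM in the controls and 9.53, 11.3 and 9.62 FPKM in the other group, and Mrps23, a mitochondria-specific protein with 13.2, 14.1 and 12.9 FPKM and 14.5, 12.7 and 14.2 FPKM. The lowest member of each subunit, Mrpl46 and Mrps11, are neighbours on chromosome 7 whose 5′ exons overlap on opposite strands (78775236 to 78783531, minus strand, and 78783119 to 78792989, plus strand). The library kit keeps no strand, so reads in that overlap cannot be told apart. In the small subunit the highest levels were those of Mrps26, Mrps18a and Mrps25 (means 73.9, 66.0 and 65.5 FPKM), of which Mrps26 and Mrps25 are mitochondria-specific. The groups of Mrps26 and of Mrps25 overlapped, with changes of 0.03 and -0.07. The median level was 36.9 FPKM in the large and 34.4 FPKM in the small subunit.

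**Figure D2:**
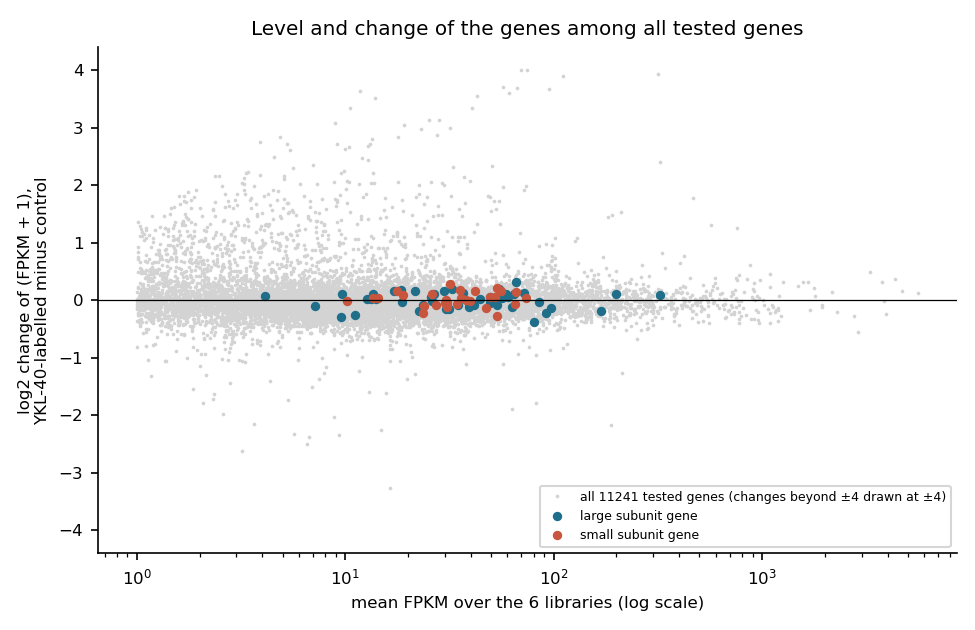
Log2 change of (FPKM + 1), YKL-40-labelled minus control, against the mean FPKM over the 6 libraries (log axis), with 1 point per tested gene and the large and small subunit genes in colour. The members span 4.13 to 324 FPKM and stay within -0.39 and 0.31.

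In the large subunit, the largest changes were those of Mrpl28 upward and of Mrpl42 and Mrpl33 downward, and none passed the test over all genes. Mrpl28 (chromosome 17, 26123500 to 26126613, 5 exons) has a bacterial counterpart, and a peptide of it is also known as a melanoma antigen seen by T cells. It had 54.8, 55.5 and 65.9 FPKM in the controls and 79.7, 69.4 and 70.2 FPKM in the YKL-40-labelled libraries. All 3 YKL-40-labelled values were above all 3 controls, with a change of 0.31 (SE 0.11, adjusted p = 0.205). Mrpl42 (chromosome 10, 95480805 to 95501940, 6 exons) is mitochondria-specific. It had 75.7, 105 and 94.3 FPKM in the controls and 76.0, 68.9 and 63.8 FPKM in the other group. Control 1 lay just under the highest YKL-40-labelled value, so the groups overlapped, and the change was -0.39 (SE 0.14, adjusted p = 0.217). It was the one member called under any alternative, with array quality weights (-0.57, adjusted p = 0.0284), a setting in which 1111 genes were called. Mrpl33, a small protein with a bacterial counterpart, had 10.6, 11.1 and 9.89 FPKM in the controls and 10.9, 7.18 and 7.61 FPKM in the YKL-40-labelled libraries (change -0.29, SE 0.15, adjusted p = 0.371). Libraries 2 and 3 of the YKL-40-labelled group were low and library 1 was among the controls. Leaving out library 1 gave a change of -0.46 and leaving out library 2 one of -0.19.

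The opposite ends of this order differ in base composition, which returns below. The first 120 coding bases, from the start codon, of the 2 genes with the lowest change and of the 2 with the highest change among all members are shown for that reason, with G and C in capitals, from the GENCODE M21 principal transcripts.
Mrpl42: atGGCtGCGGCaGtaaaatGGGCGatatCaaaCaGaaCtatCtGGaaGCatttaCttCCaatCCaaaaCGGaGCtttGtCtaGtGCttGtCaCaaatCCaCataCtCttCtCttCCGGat
Mrpl33: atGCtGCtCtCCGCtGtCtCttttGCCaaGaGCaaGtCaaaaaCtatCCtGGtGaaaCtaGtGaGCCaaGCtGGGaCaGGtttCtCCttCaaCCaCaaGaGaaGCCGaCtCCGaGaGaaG
Mrpl28: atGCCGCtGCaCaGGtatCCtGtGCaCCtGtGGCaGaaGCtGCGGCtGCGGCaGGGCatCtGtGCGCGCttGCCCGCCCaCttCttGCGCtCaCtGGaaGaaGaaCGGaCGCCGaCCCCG
Mrps12: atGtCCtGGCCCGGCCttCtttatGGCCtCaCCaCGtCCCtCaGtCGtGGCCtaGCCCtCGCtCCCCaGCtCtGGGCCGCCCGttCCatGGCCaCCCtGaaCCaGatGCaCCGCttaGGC
The share of G and C in these stretches was 43.3% for Mrpl42, 50% for Mrpl33 and 65.8% for both Mrpl28 and Mrps12.

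Other large subunit genes at the ends of the order stood as follows. Mrpl14, which lies at the face towards the small subunit, had 26.7, 32.2 and 31.8 FPKM in the controls and 38.1, 31.2 and 35.5 FPKM in the YKL-40-labelled libraries (change 0.20, SE 0.12). Mrpl38, of the central protuberance, had 43.9, 53.7 and 54.9 FPKM and 61.4, 57.0 and 55.8 FPKM (change 0.19, SE 0.11). The groups overlapped for Mrpl14 and not for Mrpl38. Mrpl47, at the rim of the tunnel through which the new chain leaves, had 12.3, 12.9 and 11.3 FPKM in the controls and 12.1, 8.28 and 10.2 FPKM in the other group (change -0.25, SE 0.14). Without control 1 the changes of Mrpl14 and Mrpl38 were 0.12 and 0.09, and without YKL-40-labelled library 2 that of Mrpl47 was -0.12. Mrpl50, mitochondria-specific, had 101, 99.2 and 95.7 FPKM in the controls and 95.7, 75.4 and 83.6 FPKM in the YKL-40-labelled libraries (change -0.22, SE 0.11, adjusted p = 0.330). The groups of Mrpl50 were separated only by the distance between 95.73 and 95.66 FPKM, and its change was -0.14 without YKL-40-labelled library 2. Of the remaining members whose groups did not overlap, Mrpl4 and Mrpl43, chosen after their values were seen, were higher (0.15 and 0.18). For all of these genes the 95% interval held 0.

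In the small subunit, Mrps12 and Mrps33 stood at the ends. Mrps12 (chromosome 7, 28739641 to 28741820, 2 exons) is a protein of the decoding centre with a bacterial counterpart. It had 25.7, 31.5 and 28.3 FPKM in the controls and 40.4, 34.3 and 30.4 FPKM in the YKL-40-labelled libraries, so that 1 YKL-40-labelled value lay within the controls (change 0.28, SE 0.13, adjusted p = 0.307, and 0.18 without YKL-40-labelled library 1). Mrps33 (chromosome 6, 39801804 to 39810988, 3 exons) is mitochondria-specific. It had 57.6, 65.0 and 52.4 FPKM in the controls and 53.1, 44.1 and 47.0 FPKM in the other group, and the groups overlapped (change -0.27, SE 0.12, adjusted p = 0.275). Mrps31, also mitochondria-specific, had 27.5, 26.5 and 22.8 FPKM in the controls and 22.5, 20.6 and 22.2 FPKM in the YKL-40-labelled libraries, which did not overlap (change -0.22, SE 0.10, adjusted p = 0.315). Mrps16, with a bacterial counterpart, had 27.3, 36.2 and 36.3 FPKM and 45.9, 31.5 and 36.4 FPKM, overlapping (change 0.18, SE 0.17, with a range from 0.04 to 0.30 when single libraries were left out, YKL-40-labelled 1 and 2 at the ends). Mrps2, another protein with a bacterial counterpart, had a change of -0.13 (SE 0.10), with a range from -0.20 (control 1 left out) to -0.08 (YKL-40-labelled 2 left out). Mrps5, chosen after its values were seen, was the other gene that was lower without overlap (-0.12).

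The 3 paralogs Mrps18a, Mrps18b and Mrps18c derive from 1 bacterial protein, and structures place the product of Mrps18a, like that of Mrps30, in the large subunit in spite of the name. Mrps18a (chromosome 17, 46110986 to 46128910) had 61.7, 64.6 and 62.0 FPKM in the controls and 69.2, 70.0 and 68.3 FPKM in the YKL-40-labelled libraries. Mrps18b (chromosome 17, 35910379 to 35916389) had 16.2, 17.0 and 16.9 FPKM and 21.2, 17.9 and 17.2 FPKM. Mrps18c (chromosome 5, 100798627 to 100804471) had 40.6, 35.7 and 41.5 FPKM and 48.8, 34.7 and 49.4 FPKM. All 3 changes were above 0, at 0.14 (SE 0.08), 0.16 (SE 0.10) and 0.15 (SE 0.15), and the groups did not overlap for Mrps18a and Mrps18b, but no adjusted p was below 0.404 in limma. Mrps18c was low in YKL-40-labelled library 2 and high in the other two. Leaving out YKL-40-labelled library 1 gave a change of 0.07 for Mrps18b. For Mrps18c the change ran from 0.07 with library 3 left out to 0.32 with library 2 left out. Mrps30 had 47.7, 55.2 and 46.1 FPKM in the controls and 58.7, 56.1 and 56.9 FPKM in the YKL-40-labelled libraries, without overlap (change 0.20, SE 0.10, adjusted p = 0.322). Moving Mrps18a and Mrps30 to the large subunit gave medians of 0.02 for the large and 0.00 for the small subunit.

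Grouped by role, the classes of members had medians between 0.00 and 0.09, given without a test. The median change was 0.00 for the 30 large subunit genes with a bacterial counterpart and 0.03 for the 19 mitochondria-specific ones. In the small subunit it was 0.03 for 16 genes with a bacterial counterpart and 0.00 for 10 mitochondria-specific ones. Mrps18c was counted with the former and Mrps18b with the latter, although both derive from the same bacterial protein. Mrps18a, Mrps30 and Mrps36 were left out of both. Mrps36 was left out because its product has been assigned to the oxoglutarate dehydrogenase complex. The 3 genes of the stalk and its base (Mrpl10, Mrpl11 and Mrpl12) had a median of 0.09, the 7 genes around the exit tunnel 0.02 and the 7 of the central protuberance 0.05.

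The libraries differed from each other more than the groups did. The summed level of the 78 genes was 3359, 3719 and 3552 FPKM in the controls and 3875, 3354 and 3473 FPKM in the YKL-40-labelled libraries, with means of 3543 ± 180 and 3568 ± 273 FPKM (SD, n = 3). For the large subunit the means were 2481 ± 137 and 2487 ± 212 FPKM, and for the small subunit 1062 ± 43.7 and 1081 ± 61.4 FPKM. YKL-40-labelled library 1 was high and control 1 and YKL-40-labelled library 2 were low, so each group held libraries on both sides. Of the 78 genes, 62 were above their own mean over the 6 libraries in YKL-40-labelled library 1 and 60 in control 2, against 23 in control 1, 36 in control 3, 19 in YKL-40-labelled library 2 and 32 in library 3. The highest value of a gene was in YKL-40-labelled library 1 for 39 of the 78, and the lowest was in control 1 for 29 and in YKL-40-labelled library 2 for 24. In both subunits YKL-40-labelled library 1 was highest and control 2 next, and control 1 and YKL-40-labelled library 2 were the lowest. The mean log2 level of the large minus that of the small subunit was 0.09, 0.12 and 0.10 in controls 1 to 3, against 0.14, 0.06 and 0.05 in YKL-40-labelled libraries 1 to 3.

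**Figure D3:**
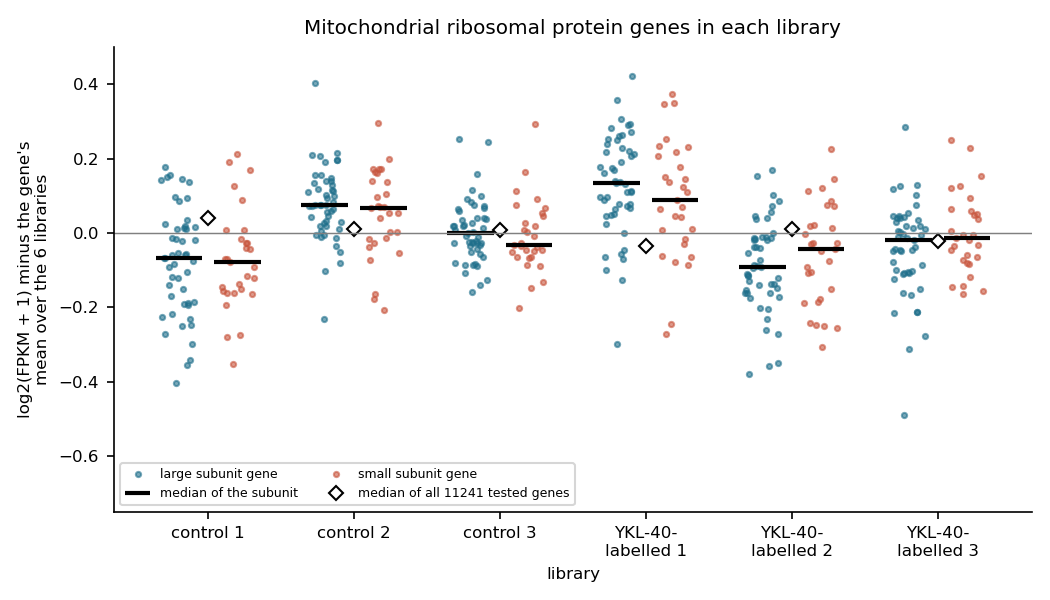
Each gene's log2(FPKM + 1) in a library minus its mean over the 6 libraries, with 1 point per gene, bars for the median of each subunit and diamonds for the median of all 11241 tested genes. Both subunits sit high in YKL-40-labelled library 1 (median 0.12 over the 78 genes) and low in control 1 and YKL-40-labelled library 2 (-0.07 and -0.08).

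Over short transcripts in general (under 2000 bases), the median deviation was -0.05, 0.01 and -0.02 in controls 1 to 3. It was 0.11, -0.02 and -0.01 in YKL-40-labelled libraries 1 to 3. The members are themselves short, with a median transcript of 1302 bases against 3063 for all tested genes. The high position of YKL-40-labelled library 1 was thus seen over short transcripts too. Control 2 and YKL-40-labelled library 2 lay farther from 0 over the members (median deviations 0.07 and -0.08) than over short transcripts. The mean log2 level of the respiratory chain genes listed below was 6.67, 6.76 and 6.74 in controls 1 to 3. It was 6.97, 6.55 and 6.74 in YKL-40-labelled libraries 1 to 3. For cytosolic ribosomal proteins it was 8.74, 9.05 and 8.90, and 9.01, 8.64 and 8.71, in the same order. The part of transcript length was not tested. The median change without YKL-40-labelled library 1 was -0.05 for the large and -0.02 for the small subunit, and without library 3 it was 0.07 and 0.02. The median coefficient of variation over the 6 libraries was 10.1% for the members and 13.4% for all tested genes.

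Within the family, the change followed the base composition of the transcript. Members richer in G and C had the higher changes, with Spearman's rho of 0.48 and Pearson's r of 0.48 across the 78 genes (0.55 and 0.54 in the large subunit, 0.38 and 0.39 in the small subunit). With the coding bases alone rho was 0.52, and with transcript length it was -0.10. Among the 26 genes of lowest G and C content (39.6% to 48.2%), the median change was -0.04 and 8 were above 0. Among the 26 of highest content (52.7% to 60.6%), it was 0.10 and 20 were above 0. Mrpl42, Mrpl33, Mrpl47, Mrpl50, Mrps31 and Mrps33 had 42.3% to 46.9% in their transcripts, whereas Mrpl28, Mrpl14, Mrpl38 and Mrps12 had 56.5% to 59.6%, as the coding starts printed above show in part. Other genes went against the relation. Mrps30 and Mrps16, with changes of 0.20 and 0.18, had 44.2% and 47.5%, and Mrpl41 and Mrpl34, chosen after their values were seen, had changes of -0.19 and -0.15 with 52.2% and 58.3%. These genes come from the same 6 libraries and are not independent of each other, so the correlation is given as a description.

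Over the whole table the same relation had a rho of 0.24 across 11123 tested genes with a transcript. It could also be read library by library. The members' deviations from their own means had a rho with G and C content of -0.54, -0.13 and -0.11 in controls 1 to 3, and of 0.21, 0.55 and 0.01 in YKL-40-labelled libraries 1 to 3. For all tested genes it was -0.33, -0.17 and 0.13, and 0.12, 0.43 and -0.12, in the same order. Control 1 and YKL-40-labelled library 2 stood at the ends in both. Without control 1 the rho between change and G and C content was 0.33, without YKL-40-labelled library 2 it was 0.32, and without any other library it lay between 0.48 and 0.54. After a correction of each library for G and C content and length, fitted over all tested genes and added after the data were seen, rho was -0.03 and 29 of the 78 members were above 0. The correction takes out a relation with G and C content by design, so this low rho was largely built in. At an unadjusted p under 0.05 there were then 13 members, 1 higher and 12 lower, in a fit where 19.8% of all genes passed that mark, and 0 were called (lowest adjusted p = 0.102). The changes of Mrpl28, Mrps12, Mrpl14 and Mrpl38 were then 0.17, 0.13, 0.07 and 0.08, and those of Mrpl42 and Mrpl33 -0.47 and -0.36. The median change was then -0.06 for each subunit, beside -0.04 for all tested genes.

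**Figure D4:**
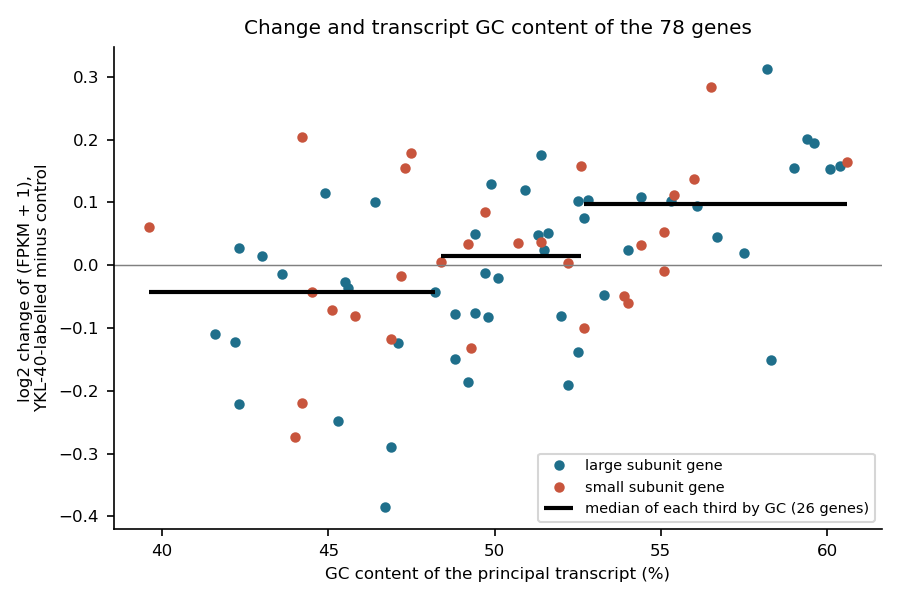
Log2 change of (FPKM + 1), YKL-40-labelled minus control, against the G and C content of the principal transcript, with 1 point per gene and bars for the median of each 26 genes in order of that content. The medians are -0.04, 0.01 and 0.10 from the lowest to the highest content.

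Some promoter motifs, which the choice of members did not use, were more frequent among the members than among tested genes. Of the 78, 69 were matched by symbol in a RefSeq promoter table (GRCm38.p6, 250 bases before to 50 bases after the start). On either strand, the core of the NRF1 motif (TGCGCA) was in 30.4% of them and in 16.6% of tested genes with a promoter. The ETS motif CCGGAAG, to which GABP binds, was in 37.7% and 21.4%, and the YY1 motif AAGATGGC in 17.4% and 5.58%. These factors are known regulators of nuclear genes for mitochondrial proteins. At least 1 of the 3 was in 44 members (63.8%), against 37.5% of tested genes, while the E-box CACGTG was in 7.25% and 12.1% and TATAAA in 7.25% and 8.49%. The motif searches were separate, and hits of different motifs may overlap. Stretches of 30 bases are shown for the named members with a hit in the 150 bases before the start, since they hold these motifs. They run 5′ to 3′ on the strand of the gene with the motif in capitals (reverse complement where it lies on the other strand).
Mrps26 (chr2:130563727-130563756, plus strand): tggtgctccgcggccaCTTCCGGgccgggc
Mrpl51 (chr6:125192099-125192128, plus strand): caggggctaaaCCGGAAGtatttgactgga
Mrps11 (chr7:78783013-78783042, plus strand): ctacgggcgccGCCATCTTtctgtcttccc
Mrps16 (chr14:20393546-20393575, minus strand): ttgggggcgctCTTCCGGgcttcaggctct
Mrps18a (chr17:46110959-46110988, plus strand): ggcTGCGCAcacccctgctCCGGAAGcgga
The capitals mark the ETS motif in Mrps26, Mrpl51 and Mrps16, the YY1 motif in Mrps11, and the NRF1 core followed by the ETS motif in Mrps18a. The median change was 0.02 for the 44 members with 1 of the 3 motifs and -0.04 for the 25 with none, and this difference was not tested.

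Some members lie head to head with another gene. In 18 of the 78 (23.1%) the start of a coding gene on the opposite strand lay within 1000 bases upstream, against 10.8% of tested coding genes. One pair was Mrps12 with Sars2, which codes for the mitochondrial seryl-transfer RNA synthetase and starts 172 bases away. Their changes were 0.28 and 0.06. Of the 17 partners that could be tested, 0 were called, 7 had a change of the same sign as the member, and their median was -0.06. Exons of 28 members overlapped a gene on the opposite strand, and reads in such overlaps were not told apart. An example chosen after its values were seen is Mrpl43, which overlaps Twnk on chromosome 19. Named pseudogenes exist in the annotation for Mrps36, Mrpl48 and Mrpl23, whose values may therefore share reads with these copies.

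The other genes of mitochondrial translation, from lists of their known roles, held 0 called genes in limma, like the ribosomal proteins. Of all tested genes, 57.8% were below 0, and 8.71% were higher and 9.24% lower at an unadjusted p under 0.05. The counts of every list below stand beside these shares. Of 5 tested ribosomal proteins named otherwise, such as Dap3, 2 were above 0 and none passed an unadjusted p under 0.05 (median change -0.02). Of 17 translation factors, 13 were below 0 and 3 were lower at an unadjusted p under 0.05 (median -0.11). Taco1, an activator of the translation of a cytochrome oxidase subunit, had 15.97, 16.8 and 15.6 FPKM in the controls and 11.1, 13.1 and 12.4 FPKM in the YKL-40-labelled libraries. The groups did not overlap, with a change of -0.38 (SE 0.10, adjusted p = 0.121). Guf1, a ribosome-bound GTPase, had a change of -0.33 (adjusted p = 0.178), and Lrpprc, which stabilises mitochondrial messenger RNA, -0.17. Of 19 genes of aminoacyl-transfer RNA synthesis, 16 were below 0 and 2 were lower at an unadjusted p under 0.05 (median -0.13). Mars2, the mitochondrial methionyl-transfer RNA synthetase, had a change of -0.35 (SE 0.11, adjusted p = 0.186).

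Of 26 genes of ribosome assembly and ribosomal RNA modification, 16 were below 0 and 1 was lower at an unadjusted p under 0.05, the methyltransferase gene Mettl15 (-0.36, median of the list -0.03). Of 17 genes that transcribe or replicate mitochondrial DNA or regulate mitochondrial biogenesis, 14 were below 0 and 1 was lower, Twnk, the helicase of mitochondrial DNA (-0.31, SE 0.09, adjusted p = 0.152). The median of that list was -0.16. Its most abundant member Ppargc1a, a coactivator of mitochondrial biogenesis, had 52.5, 64.2 and 58.9 FPKM and 45.5, 53.0 and 75.2 FPKM, with no separation of the groups (-0.04). Of 14 genes of import and chaperones, none passed an unadjusted p under 0.05 (median 0.01). Of 76 nuclear genes of the respiratory chain, 1 was higher and 1 lower at that mark (median 0.02), and these were Ndufs7 of complex I (0.32) and Atp5c1 of ATP synthase (-0.24). Of 76 cytosolic ribosomal protein genes, 60 were below 0 and 11 were lower at an unadjusted p under 0.05 (median -0.12), with Rps6 and Rpl5 both at -0.39 (adjusted p = 0.142). The genes encoded by mitochondrial DNA were not analysed here. Whether these lists differed from the mitochondrial ribosomal proteins was not tested.

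**Figure D5:**
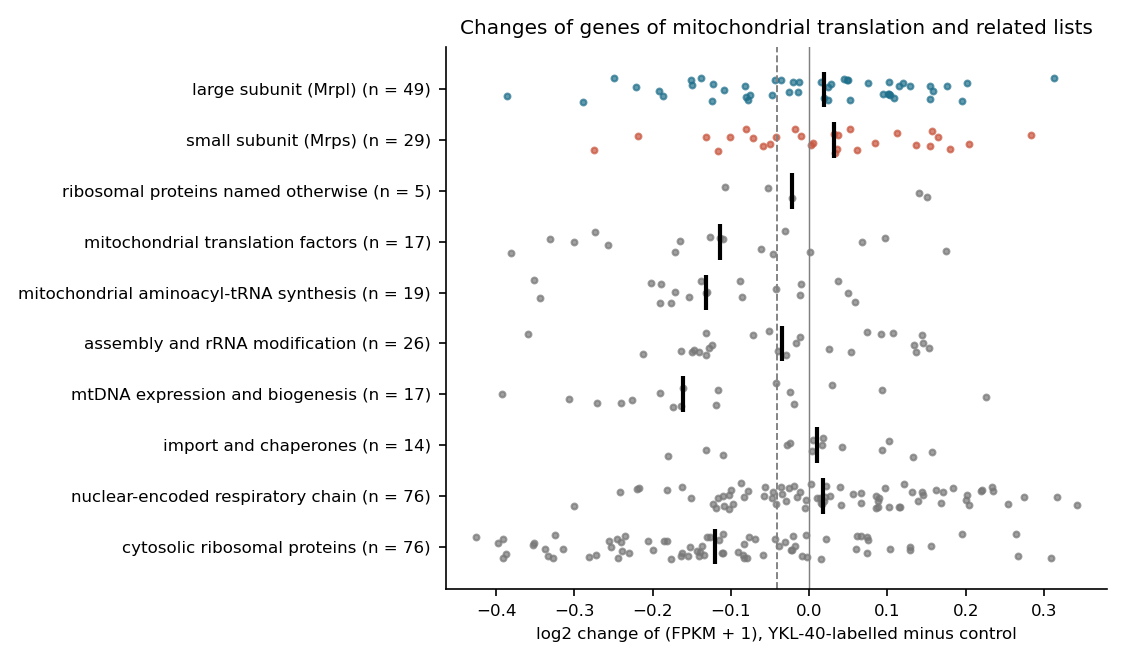
Log2 change of (FPKM + 1), YKL-40-labelled minus control, of each tested gene in the 2 subunits and 8 related lists, with 1 point per gene and a bar for the median of the list. The solid line marks 0 and the dashed line the median of all tested genes (-0.04). The 2 subunits, the import list and the respiratory chain have medians from 0.01 to 0.03, and the other lists from -0.16 to -0.02.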

How the data were processed

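The authors deposited 1 table of FPKM values, 1 per gene and library, for 6 bulk RNA libraries, 3 per group. Per the labels' protocols, library construction used 2 µg of total RNA and a TruSeq v2 kit, which keeps no strand. HISAT2, StringTie, limma, DESeq2, bcl2fastq 2.0 and the build mm10 are listed in the submitters' processing notes, without their roles. The annotation and the read numbers are not given in the sources used here, so no counting interval was possible.

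Groups were taken from the sample titles. The 11241 genes averaging 1 FPKM or more over the libraries were tested as log2(FPKM + 1) in limma 3.58.1 (R 4.3.3) with a variance trend, two-sided, with Benjamini-Hochberg adjustment over all of them. The procedure was tested on data simulated with independent noise for each gene, without shifts of whole libraries. The changes planted there were all larger than any member's change here, so that test does not cover changes of the members' size. An exact permutation of 3 against 3 libraries cannot go below p = 0.1 and was not used. The added pseudocount understates changes of low genes.

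The members, lists, role classes and tests were chosen with earlier results of these data known. Within each subunit the named genes are the 5 of lowest p, the 3 largest increases and decreases, the 3 highest and 2 lowest levels, plus the 2 nearest the threshold, Mrps18a, Mrps18b, Mrps18c and Mrps30. From each other list of mitochondrial translation the rule takes the 2 of lowest p and the most abundant, and 1 gene taken this way is not reported here. Positions, transcripts and G and C content came from GENCODE M21 (GRCm38, the assembly of mm10) and promoters from RefSeq. Alternatives were other pseudocounts, filters and scalings, no variance trend, array quality weights, a replicate block, a muscle covariate, each library left out, the subunit of Mrps18a and Mrps30, and, added after the data were seen, a correction for G and C content and length (a regression spline with 4 degrees of freedom for each).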

Additional observations from a re-analysis of the deposited data

How the results depend on the processing

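Pseudocounts of 0.1 and 0.01, a filter at 5 FPKM and scaling to the same sum moved no count by more than 1.5 times and turned no change of a named member. No member was called under any alternative except Mrpl42 with array quality weights (1 large subunit gene). Genes called over the table were 49, and 1 without a filter, 1111 with array quality weights, 120 with the replicate block, 0 with the muscle covariate, 2 with the G and C content and length correction, 0 with that correction and the replicate block, and 0 to 238 with 1 library left out. The replicate numbers showed no sign of pairing the samples. After each group's own mean was subtracted from every gene, same-numbered libraries correlated at -0.08, -0.19 and 0.00. None correlated best with its own number. With 3 libraries a group such values depend on each other, so they cannot exclude a pairing. Large subunit genes at an unadjusted p under 0.05 were 2, and 8 with array quality weights, 1 with the replicate block, 8 with the G and C correction, 5 with that correction and the replicate block, and 0 to 5 with 1 library left out. Small subunit genes at that mark were 1, and 3 both with no filter and with array quality weights, 0 with median-of-ratios scaling, with no variance trend or with the replicate block, 2 with the muscle covariate, 5 with the G and C correction with or without the replicate block, and 0 to 2 with 1 library left out. The share of all genes at that mark was 18% in the main fit, 28.6% with array quality weights and 14.6% with the replicate block. It was 19.8% with the G and C correction, 18.1% with that correction and the replicate block, and 4.55% with the muscle covariate. For the other settings named it lay between 11.9% and 20.8%. The median change became -0.10 in both subunits with the muscle covariate, beside -0.01 for all genes. It became -0.056 (large) and -0.058 (small) with the G and C correction, with or without the replicate block, beside -0.042 for all genes. Groups that do not overlap numbered 11 (14.1% of the members, against 24.4% of all tested genes). With 1 library left out they numbered 16 to 23, where fewer values can overlap. The share of all genes was not counted with a library left out.

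Among the 25 named members, 31 of 449 refitted changes turned sign, to values between -0.15 and 0.07. The median size of a member's change in the main fit was 0.10. With the muscle covariate these were Mrpl12 (-0.0006), Mrpl46 (-0.15), Mrpl51 (-0.041), Mrps16 (-0.0026), Mrps18c (-0.0123), Mrps23 (-0.15) and Mrps30 (-0.0003). With the G and C correction, with or without the replicate block, they were Mrpl12 (-0.0475), Mrpl46 (-0.0559), Mrps18a (-0.0178), Mrps23 (-0.0728) and Mrps25 (0.0248). With array quality weights they were Mrpl12 (-0.0416), Mrps25 (0.0698) and Mrps26 (-0.12), and with median-of-ratios scaling Mrps11 (0.0136). With 1 library left out, Mrpl12 ran from -0.0018 to 0.16, Mrpl46 from -0.0516 to 0.16, Mrpl51 from -0.0354 to 0.23, Mrps11 from -0.0844 to 0.0573, Mrps25 from -0.17 to 0.0637 and Mrps26 from -0.0462 to 0.12. The cause was not tested. Read numbers were not known, so what depth limits could not be measured, and the design had 3 libraries a group.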
